A study of Mus musculus with 26 samples.

Results

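The juxtamembrane-only receptor (JMO) was compared with the kinase-dead receptor (K1030R) in unstimulated cells, in 3 libraries of each line out of the 26 mRNA-seq libraries of the study. The cells were brown preadipocytes from newborn mice homozygous for floxed insulin receptor and IGF-1 receptor genes, immortalised with SV40 T antigen. Cre from an adenovirus inactivated both receptor genes (DKO cells), and a retrovirus then supplied a FLAG-tagged human insulin receptor (B isoform) under hygromycin selection, so that every line carried the T antigen and the double receptor loss. K1030R is the full-length human receptor with an exchanged lysine in its kinase domain. JMO ends after the juxtamembrane stretch inside the cell and lacks the kinase domain and the C-terminus. Dishes were starved of serum for 6 h and harvested without insulin, and separate dishes of both lines received 100 nM insulin for 15 min. Each receptor was present in 1 line, so receptor and line cannot be told apart, and the p-values measure the spread between dishes. The genes described are the 15402 with a level above 0.5 CPM, a count scaled to the library total, in at least 4 of the 26 libraries.

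The insulin receptor is a membrane tyrosine kinase. Its intracellular part begins with the juxtamembrane region, which holds docking sequence for receptor substrates, continues with the kinase domain and ends with the C-terminal tail. Neither receptor compared here has an active kinase, and they differ in whether the kinase domain and tail are there as protein. Several gene systems described below have well known controls: type I interferons act through STAT and IRF factors on promoter sequences of repeated GAAA, NF-kB drives many acute-phase and chemokine genes, and SREBP2 drives the genes of cholesterol synthesis through sterol elements. Preadipocytes are fibroblast-like cells that deposit collagen and turn to lipid storage when they differentiate.

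The promoters of 6 called genes are printed as examples from the interferon, MHC class I and cholesterol groups, where most of the members tested were called. Each printed promoter holds a match, which does not show how common that match is in its group. Each is the 150 bases before the RefSeq start of transcription, 5′ to 3′ on the strand of the gene (GRCm38.p6). RefSeq and GENCODE starts of a gene can differ by some bases. Capitals mark the match searched for, which is GAAANNGAAA in either orientation for the first 4 genes, the NF-kB motif for H2-K1 and TCACNCCAC, a sterol element, for Hmgcs1. The windows were chr19:34640739-34640888 (plus strand) for *Ifit1*, chr4:156200819-156200968 (minus strand) for *Isg15*, chr12:26456453-26456602 (minus strand) for *Rsad2*, chr2:122147537-122147686 (plus strand) for *B2m*, chr17:34000348-34000497 (minus strand) for *H2-K1* and chr13:119690201-119690350 (plus strand) for *Hmgcs1*.
Ifit1: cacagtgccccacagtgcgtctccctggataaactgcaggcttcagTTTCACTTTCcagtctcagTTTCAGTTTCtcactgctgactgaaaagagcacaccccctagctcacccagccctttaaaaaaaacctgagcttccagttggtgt
Isg15: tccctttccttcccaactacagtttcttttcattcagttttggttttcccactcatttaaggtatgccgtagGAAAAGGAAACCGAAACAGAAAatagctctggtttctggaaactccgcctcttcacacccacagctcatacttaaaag
Rsad2: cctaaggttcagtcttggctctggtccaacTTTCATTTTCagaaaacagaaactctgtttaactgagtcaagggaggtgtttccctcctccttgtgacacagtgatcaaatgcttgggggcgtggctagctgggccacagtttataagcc
B2m: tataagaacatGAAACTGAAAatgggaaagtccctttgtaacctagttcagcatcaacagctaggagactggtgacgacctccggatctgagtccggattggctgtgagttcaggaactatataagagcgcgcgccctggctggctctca
H2-K1: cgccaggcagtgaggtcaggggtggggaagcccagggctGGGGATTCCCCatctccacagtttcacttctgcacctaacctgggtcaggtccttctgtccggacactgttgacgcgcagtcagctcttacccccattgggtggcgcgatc
Hmgcs1: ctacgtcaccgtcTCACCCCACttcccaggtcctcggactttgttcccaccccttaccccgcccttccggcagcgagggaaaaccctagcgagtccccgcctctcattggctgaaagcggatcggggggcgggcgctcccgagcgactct

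*Ifit1* had 2 separate matches and *Isg15* had 3 that overlapped in one run, while *Rsad2* and *B2m* had 1 each. The capitals of *H2-K1* hold 2 overlapping matches. A match shows that these letters are there and does not show that a factor binds.

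The JMO libraries held 19594088 to 24439952 counts and the K1030R libraries 17228982 to 19883841. *Insr*, which is the mouse gene of the receptor and may collect reads of the human construct, was at 76.9, 69.8 and 66.7 CPM in the K1030R libraries and 74.2, 68.9 and 69.8 CPM in the JMO libraries. In the values of both lines below, K1030R comes first, and differences are JMO minus K1030R on the log2 scale with their SE. This SE is the size of the difference divided by the square root of the test's F statistic. It can be too small where a large difference rests on few counts in 1 group. The groups overlapped for *Insr*, with a difference of 0.00 ± 0.05 (SE) and adjusted p = 0.998 in edgeR's quasi-likelihood test, the source of every adjusted p given here, while the DKO mean was 23.8 ± 1.32 CPM (SD, n = 3). *Igf1r* differed by -0.16 ± 0.05. Both lines held the mesenchymal markers *Pdgfra*, *Pdgfrb*, *Vim* and *Col1a1*. Of 7 such markers tested, *Ly6a* was called higher, at 3.42 to 3.57 CPM in K1030R and 9.8 to 11.3 CPM in JMO, and *Cd34*, at 9.66 to 11.7 CPM and 4.68 to 5.2 CPM, and *Col1a1* lower. Of 6 markers of mature fat cells, *Adipoq*, *Cidec*, *Ucp1* and *Lep* were at 0 counts in all 6 libraries and *Plin1* had 7 counts in K1030R and 8 in JMO. *Fabp4*, the only such marker above the filter, had 78 counts over the K1030R libraries and 286 over the JMO libraries and was called higher (1.68 ± 0.21). Of the brown lineage markers, *Zic1* lay at 111 to 112 CPM in JMO and 117 to 123 CPM in K1030R, whereas *Ebf2*, *Prdm16* and *Lhx8* were below the filter. The summed level of 7 leukocyte markers was 16 to 16.2 CPM in JMO and 12.5 to 13.6 CPM in K1030R, with *Adgre1* and *Tyrobp* at 0 in all 6 libraries, and the part of such cells in the results below was not tested. In RNA of whole dishes, fewer cells of a kind and less RNA per cell cannot be told apart. The share of counts at *Gm42418*, a gene model that overlaps ribosomal RNA, was 4.47 to 4.87% in JMO and 2.82 to 3.64% in K1030R. With that gene left out, an alternative chosen after seeing the data, 426 genes were called higher and 136 lower.

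The question of the comparison is what the presence of an inactive kinase domain and tail changes in unstimulated cells. A gene was called when its difference passed a test against a minimum fold of 1.5 at an adjusted p under 0.05 (edgeR, Benjamini-Hochberg over all genes tested), so that an estimate somewhat beyond 1.5-fold can fail it. JMO had 430 genes higher than K1030R (2.79% of those tested) and 131 lower (0.851%), which is 561 in either direction (3.64%). The called higher genes had a median log2 difference of 1.61 and the called lower genes of -1.02, against 0.00 for all genes tested. More than 4-fold differences were found for 153 genes that were higher and 11 that were lower in JMO. The higher genes took 2.85% of the counts in JMO and 1.09% in K1030R, and the lower genes took 1.91% and 3.38%. With no minimum fold, 2676 genes were higher (17.4%) and 2775 lower (18%), so that the imbalance in favour of JMO was in the genes of large difference. The 3 JMO libraries did not overlap the 3 K1030R libraries for 560 of the 561 called genes and for 47.2% of all genes tested. Of the called genes, 511 were protein coding.

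**Figure D1:**
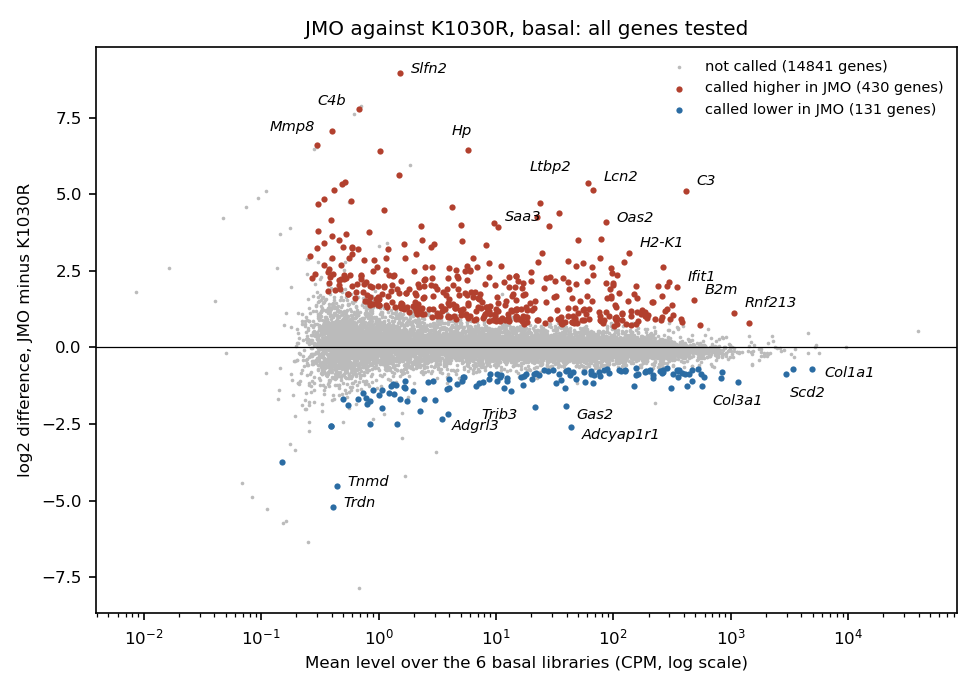
Log2 difference between JMO and K1030R (vertical) against the mean level over the 6 basal libraries in CPM (horizontal, log scale), 1 point for each gene tested. Of the 430 genes called higher in JMO (red) 153 lie beyond 4-fold, as do 11 of the 131 called lower (blue), and grey points are genes not called.

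Among genes with more than 3 counts in each group and a mean of at least 1 CPM, the 10 largest differences in favour of JMO are named here. *Hp* (ENSMUSG00000031722, chr8:109575128-109579172, GRCm38), which codes for haptoglobin, the plasma protein that binds free haemoglobin, was at 0.118, 0.101 and 0.155 CPM in K1030R and 11.2, 11.5 and 11.7 CPM in JMO. *Ltbp2* (ENSMUSG00000002020, chr12:84783212-84876532), a microfibril protein of the latent TGF-beta binding family, was at 2.9, 3.27 and 2.43 CPM in K1030R and 111, 114 and 129 CPM in JMO. *Lcn2* (ENSMUSG00000026822, chr2:32384633-32388252), lipocalin 2, which withholds iron from bacteria, was at 3.79, 3.62 and 3.67 CPM and 131, 128 and 135 CPM. For all 3 genes the JMO libraries stood far above the K1030R libraries, and the log2 differences were 6.45 ± 0.25 (SE) for *Hp*, 5.36 ± 0.08 for *Ltbp2* and 5.15 ± 0.07 for *Lcn2* (adjusted p = 8.85e-35). *Hp* had few counts in K1030R, so its SE can be too small. The other 7 of the 10 largest were *C3* (5.11 ± 0.13), *Oas1g* (4.72 ± 0.19), *Csprs* (4.57 ± 0.24), *Orm1* (4.48 ± 0.47), *Saa3* (4.40 ± 0.10), *Gm4951* (4.26 ± 0.16) and *Oas2* (4.10 ± 0.26). *Oas1g*, *Csprs*, *Orm1* and *Gm4951* have near-identical relatives in the mouse genome, so reads may be divided among copies, and the value of *Orm1* was 6.08 without K1030R 1.

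Under the same limits on counts and mean CPM, the largest differences in favour of K1030R were smaller and came from genes of varied function. *Adcyap1r1* (ENSMUSG00000029778, chr6:55451978-55501451), the receptor of the neuropeptide PACAP, was at 79.7, 68 and 78.6 CPM in K1030R and 13.8, 12.6 and 11 CPM in JMO. *Gas2* (ENSMUSG00000030498, chr7:51862015-51994975), a cytoskeletal protein first found in growth-arrested cells, was at 60.9, 63.3 and 65.2 CPM and 18.3, 16.2 and 15.1 CPM. *Trib3* (ENSMUSG00000032715, chr2:152337422-152344032), a pseudokinase induced through ATF4, was at 35.2, 33.2 and 34.6 CPM and 9.15, 8.62 and 9.02 CPM. In each gene every JMO library lay below every K1030R library, and the log2 differences were -2.59 ± 0.14 (SE), -1.92 ± 0.05 and -1.94 ± 0.09 (adjusted p = 3.26e-18). *Cmklr1*, the chemerin receptor (-2.50 ± 0.26), *Adgrl3*, an adhesion G protein-coupled receptor (-2.34 ± 0.16), *Ptprq* (-2.17 ± 0.19), *Cited1* (-2.08 ± 0.22), *Fam169b* (-1.99 ± 0.31), *Matn3*, a cartilage matrix protein (-1.75 ± 0.31), and *Trhde* (-1.70 ± 0.16) made up the rest of the 10.

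Of the called genes, 18 higher and 3 lower had 3 or fewer counts in 1 group, for which a fitted difference is no measure of size. *Slfn2*, a Schlafen gene induced by interferon, had 196 counts over the JMO libraries and 0 over the K1030R libraries, at least 56.9-fold higher against a floor of 3 counts over the group. *Chil1*, a chitinase-like protein, had 190 against 3 counts, a ratio of 55.2 with a 95% counting interval of 18.6 to 270. *Kng1*, kininogen, had 130 against 1 (ratio 113, 20 to 4510). In the other direction *Tnmd*, tenomodulin of tendon cells, had 48 counts in K1030R against 2 in JMO (ratio 27.5, 7.22 to 234), *Trdn*, triadin of the muscle calcium store, 44 against 1 (50.5, 8.60 to 2040) and *Krt8*, an epithelial keratin, 16 against 1 (18.4, 2.85 to 770). The intervals cover counting error only, and the call of *Krt8* was lost in DESeq2 and without JMO 1 or JMO 2.

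Interferon-stimulated genes were higher in JMO across most of the list. Of 48 effectors tested, 39 were called higher (81.2% of the list, against 2.79% of all genes tested) and none lower, with a median log2 difference of 1.55. *Oas2* (ENSMUSG00000032690, chr5:120730333-120749853), which senses double-stranded RNA and activates RNase L, was at 7.34, 11.2 and 10.1 CPM in K1030R and 162, 141 and 193 CPM in JMO. *Ifit1* (ENSMUSG00000034459, chr19:34640871-34650009), which binds foreign RNA ends and whose promoter is printed above, was at 144, 153 and 132 CPM and 585, 529 and 567 CPM. *Isg15* (ENSMUSG00000035692, chr4:156199424-156200818), a ubiquitin-like modifier with the triple match, was at 15.9, 20.4 and 18.5 CPM and 111, 109 and 123 CPM. The lowest JMO library exceeded the highest K1030R library for each of the 3, by log2 differences of 4.10 ± 0.26 (SE), 1.97 ± 0.17 and 2.63 ± 0.19. *Rsad2*, viperin, differed by 4.07 ± 0.14 and *Mx1*, a GTPase that blocks virus replication, by 2.30 ± 0.17. *Rnf213*, a very large ubiquitin ligase at 644, 743 and 658 CPM in K1030R and 1491, 1311 and 1604 CPM in JMO, had a smaller difference of 1.11 ± 0.17 (adjusted p = 3.89e-05), and its call was lost without JMO 1, JMO 3, K1030R 1 or K1030R 3 and in DESeq2.

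The lists upstream of the effectors had smaller medians. Of 16 nucleic acid sensors and adaptors, 8 were called higher (50%, against 2.79% of all genes tested) and none lower (median log2 difference 0.74), led by *Zbp1*, a sensor of Z-form nucleic acid (3.92 ± 0.23), *Dhx58* or LGP2, a helicase of the RIG-I family (2.17 ± 0.19), *Ifi205* (2.14 ± 0.11) and *Aim2*, the DNA sensor of an inflammasome (1.97 ± 0.37, a call lost in DESeq2). Of 24 JAK, STAT, IRF and SOCS genes, 3 were called higher (12.5%) and none lower (median 0.20), among them *Irf7*, the factor that amplifies interferon production (2.10 ± 0.17), and *Stat2*, a subunit of the interferon-activated transcription factor (1.01 ± 0.11). *Stat2* (ENSMUSG00000040033, chr10:128270559-128292849) was at 168, 183 and 172 CPM in K1030R and 361, 318 and 372 CPM in JMO, without overlap (adjusted p = 1.12e-06). *Stat3*, which serves IL-6 family receptors, was at 111, 110.1 and 108 CPM and 114, 113 and 111 CPM, with a difference of 0.04 ± 0.03 (adjusted p = 0.35). The 21 interferon ligand genes of the table, a group looked up after seeing the data, had 52 counts in sum over the JMO libraries and 44 over the K1030R libraries, of which *Ifnz* held 25 and 38, *Ifnb1* 14 and 4 and *Ifna4* 8 and 0.

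The letters GAAANNGAAA, searched on both strands in 250 bases before to 50 after each start, were in 55 of 287 promoters of genes called higher (19.2%), in 0 of 85 of genes called lower, in 20 of 37 of the interferon list (54.1%) and in 337 of 10829 of all genes tested that had a promoter entry (3.11%). The AP-1 letters TGACTCA were in 10.1% of promoters of genes called higher, 2.35% of those called lower and 3.78% of all. The NF-kB motif was in 10.8% of the higher, 9.41% of the lower and 4.96% of all promoters. The sterol letters TCACNCCAC were in 0.697%, 2.35% and 0.951%. These shares are descriptions, and overlap between the motifs was not removed.

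**Figure D2:**
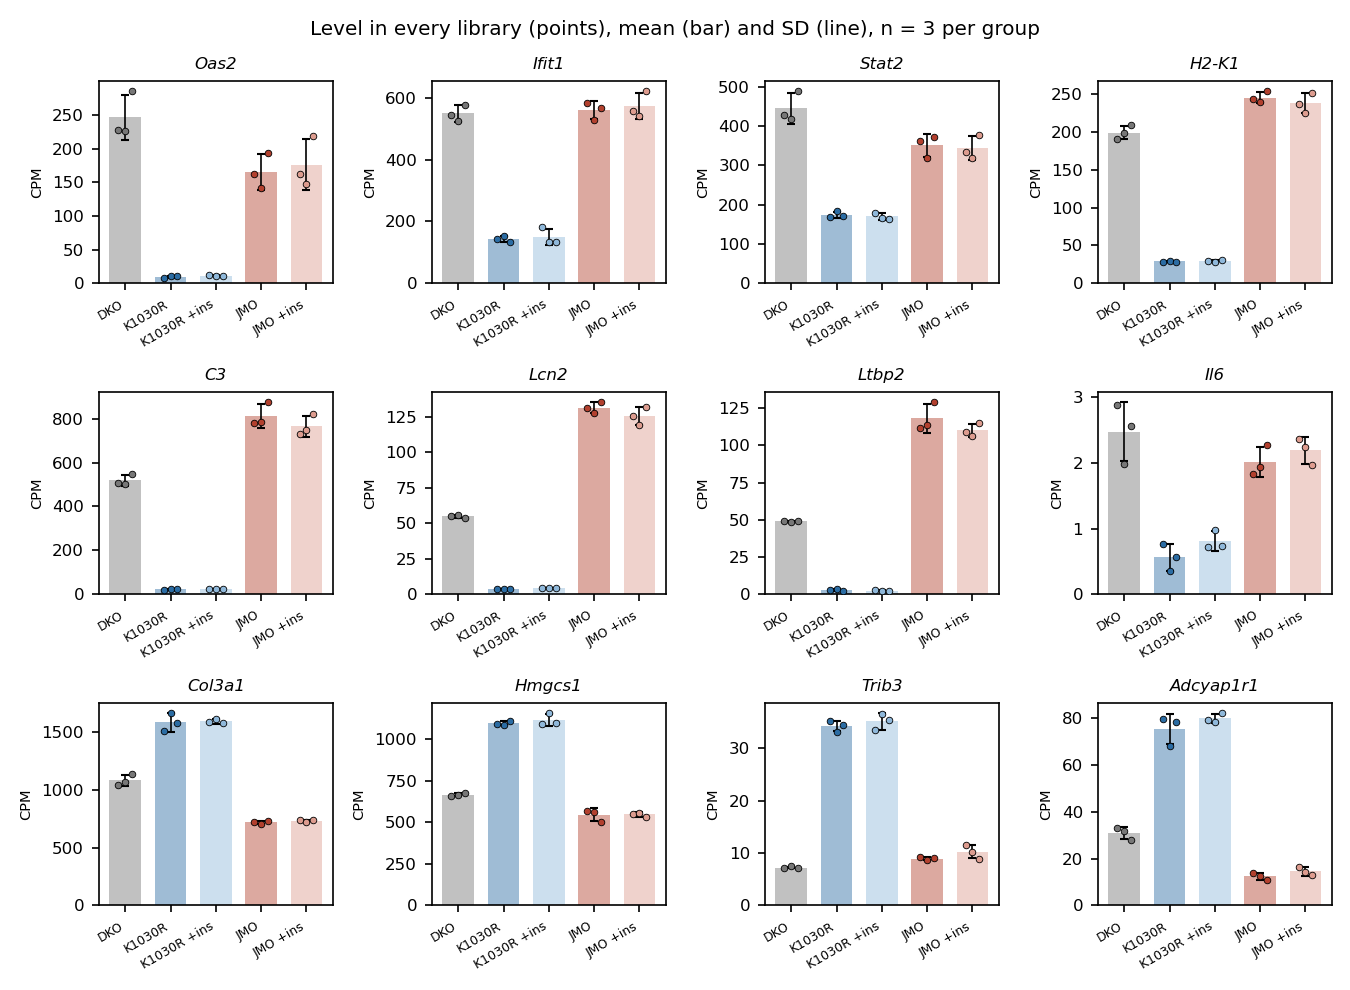
Level in CPM (vertical, from 0) of 12 genes in DKO, K1030R and JMO libraries, the latter lines without and with insulin; points are libraries, bars the mean and lines the SD of 3. For *Oas2*, *Ifit1*, *H2-K1*, *C3*, *Lcn2* and *Ltbp2* the JMO points stand above all K1030R points, for *Col3a1*, *Hmgcs1*, *Trib3* and *Adcyap1r1* below them, and insulin moved neither line across the gap.

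Of 27 tested genes of peptide presentation by MHC class I, 16 were called higher in JMO (59.3%, against 2.79% of all genes tested) and none lower, with a median log2 difference of 1.21. *H2-K1* (ENSMUSG00000061232, chr17:33996017-34000347), a classical class I heavy chain, was at 28.1, 30.1 and 28.5 CPM in K1030R and 243, 239 and 254 CPM in JMO, and *B2m* (ENSMUSG00000060802, chr2:122147686-122153083), the light chain that all class I molecules share, at 244, 264 and 246 CPM and 722, 727 and 736 CPM. Libraries of the same line were within a narrow band for both genes, and the log2 differences were 3.08 ± 0.06 (SE) and 1.53 ± 0.04 (adjusted p = 7.73e-23). *H2-Q4* (2.83 ± 0.07) and *H2-Q6* (2.91 ± 0.27) were also higher, while *H2-Q1* had 38 counts against 0 (at least 11-fold). The heavy chain genes are close copies, so the division of reads among them is uncertain. The NF-kB motif was found in 8 of 22 promoters of the list (36.4%, against 4.96% of all), among them that of *H2-K1* printed above. Those of *H2-D1*, *H2-Q4*, *H2-Q6* and *H2-Q7* also held it, and such copies may share promoter sequence, so the 8 are not independent. The promoters of *Tap1*, *Psmb8*, *Psmb9* and *Erap1* had no match. GAAANNGAAA, printed for *B2m*, was in 5 of 22 promoters of the list (22.7%, against 3.11% of all).

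Complement and acute-phase genes had the highest median of the 41 lists, 1.90, with 15 of 20 tested called higher (75%, against 2.79% of all genes tested) and none lower. *C3* (ENSMUSG00000024164, chr17:57203970-57228136), the central complement protein, was at 21, 26 and 23.2 CPM in K1030R and 779, 783 and 875 CPM in JMO. *Saa3*, serum amyloid A of extrahepatic tissue, was at 3.2, 2.97 and 3.16 CPM and 62.6, 62.3 and 72 CPM. Both were many times higher in every JMO library, 34.5-fold for *C3* by the fitted value and 21.1-fold for *Saa3*. *C4b* had 87 counts in JMO and 0 in K1030R (at least 25.3-fold higher).

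Secreted attractants were mixed. Of 25 chemokines and interleukins, 7 were called higher (28%, against 2.79% of all genes tested) and 2 lower (8%, against 0.851%). *Cxcl5*, a neutrophil attractant, was at 43.6, 34.5 and 42.3 CPM in K1030R and 146, 147 and 152 CPM in JMO (log2 difference 1.89 ± 0.08), *Cxcl10*, an interferon-induced T cell attractant, differed by 1.52 ± 0.14, *Ccl5* by 1.64 ± 0.14 and *Il6*, at 0.770, 0.352 and 0.569 CPM and 1.83, 1.94 and 2.28 CPM, by 1.85 ± 0.28. *Ccl9* was lower, at 47, 43.4 and 44.3 CPM and 19.8, 20.4 and 20.4 CPM (-1.15 ± 0.06), as was the scarce *Cxcl2* (-1.69 ± 0.38), whose call was lost in DESeq2, in limma, with no filter, in the 6 libraries alone and without JMO 1, JMO 3, K1030R 1 or K1030R 3. *Ccl2*, the monocyte attractant, lay at 324, 266 and 317 CPM and 490.0, 490.5 and 489.5 CPM, a difference of 0.70 ± 0.07 (adjusted p = 2.43e-07 with no minimum fold) that did not pass the test against the minimum fold. Of 20 NF-kB factors and regulators only *Ikbkg*, the regulatory subunit of the IkB kinase, was called, higher in JMO (5% of the list, 0.71 ± 0.04, lost in DESeq2), and *Nfkb1* differed by 0.16 ± 0.03. Of 22 cytokine receptors, *Il1rl1*, the receptor of IL-33 (1.23 ± 0.15, lost in the 6 libraries alone), and *Osmr*, the oncostatin M receptor (0.91 ± 0.05), were called higher (9.09%).

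Of 10 tested chains of the collagens that build fibrils, 5 were called lower in JMO (50%, against 0.851% of all genes tested) and none higher, with a median log2 difference of -0.47. With no minimum fold 6 were lower and 0 higher, against 18% and 17.4% of all genes tested, and the members ranged up to 0.12. *Col3a1* (ENSMUSG00000026043, chr1:45311538-45349706), the chain of type III collagen, was at 1509, 1667 and 1581 CPM in K1030R and 723, 705 and 731 CPM in JMO. *Col1a1* (ENSMUSG00000001506, chr11:94936224-94953042), the main chain of type I collagen, was at 5912, 6286 and 6099 CPM and 3706, 3752 and 3748 CPM. *Col11a1*, of the thin fibrils found in cartilage and other young matrix, was at 452, 449 and 433 CPM and 175, 176 and 179 CPM. The differences were -1.14 ± 0.04 (SE), -0.71 ± 0.04 and -1.33 ± 0.03, and with *Col1a2* (-0.71 ± 0.03) and *Col5a1* (-0.75 ± 0.03) these made up the 5. The call of *Col1a1* was lost in DESeq2, in limma and without JMO 1, JMO 3 or K1030R 2. In other collagen families none of 10 type VI and fibril-associated chains was called, with *Col6a1* at -0.20 ± 0.04 and *Col12a1* at 0.33 ± 0.03. Of 12 network chains only the transmembrane collagen gene *Col23a1* was called, higher in JMO at 2.61 ± 0.24 (8.33%, against 2.79% of all genes tested).

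Other matrix genes were called in both directions. Of 24 collagen-modifying enzymes, *Pcolce2*, which speeds procollagen cleavage, was called higher (1.21 ± 0.07) and *Loxl2*, a lysyl oxidase that cross-links collagen, lower (-0.73 ± 0.03). These were 4.17% of the list each, against 2.79% and 0.851% of all genes tested. Of 27 matrix metalloproteinases, ADAMTS proteases and inhibitors, 6 were called higher (22.2%, against 2.79% of all) and 2 lower (7.41%, against 0.851%). *Mmp3*, stromelysin, was at 1.18, 1.36 and 1.5 CPM and 8.01, 8.16 and 7.33 CPM (2.53 ± 0.15), *Mmp13* differed by 1.90 ± 0.25, and *Mmp8*, neutrophil collagenase, had 52 counts in JMO and 0 in K1030R (at least 15.1-fold). The aggrecan-cleaving enzyme genes *Adamts1* and *Adamts5* were lower, at 872, 741 and 788 CPM against 345, 339 and 322 CPM for *Adamts1* (-1.25 ± 0.04) and at -0.98 ± 0.04 in log2 for *Adamts5*. Of 17 elastic fibre genes, *Ltbp2* and *Fbln1* (1.04 ± 0.09) were called higher (11.8%) and *Fbn2*, fibrillin 2, lower (5.88%, -0.86 ± 0.09), a call lost in DESeq2, in limma and without JMO 1, K1030R 2 or K1030R 3. The list of 20 small proteoglycan and tendon genes had *Fmod* (1.26 ± 0.12), *Mkx* (0.90 ± 0.08, lost in DESeq2) and *Thbs2* (0.72 ± 0.04) higher (15%) and *Aspn*, asporin (-0.80 ± 0.04), and *Tnmd* lower (10%). Among 24 integrins and laminins 1 was called higher and 1 lower (4.17% each, against 2.79% and 0.851% of all). The laminin chain gene *Lama4* was higher, at 17.2, 20.3 and 17.9 CPM and 76.8, 75.4 and 78.9 CPM (2.05 ± 0.06), and *Itga10*, a collagen-binding integrin, lower (-1.43 ± 0.10). *Itgb1* differed by -0.22 ± 0.04 and was not called, nor was any of 29 contractile cytoskeleton genes, of which *Flna* differed by -0.26 ± 0.03 and *Actb* by -0.10 ± 0.04.

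Of 26 tested genes of cholesterol synthesis and uptake, 18 were called lower in JMO (69.2%, against 0.851% of all genes tested) and none higher, and the median log2 difference was -0.77. With no minimum fold 24 were lower and 2 higher, against 18% and 17.4% of all genes tested. *Hmgcs1* (ENSMUSG00000093930, chr13:119690379-119708260), which makes HMG-CoA at the entry of the mevalonate pathway, was at 1095, 1087 and 1113 CPM in K1030R and 570.3, 565 and 501 CPM in JMO. *Insig1* (ENSMUSG00000045294, chr5:28071363-28078662), the sterol-regulated anchor of SREBP, was at 663, 636 and 628 CPM and 312, 307 and 293 CPM. *Idi1*, isopentenyl diphosphate isomerase, was at 756, 788 and 817 CPM and 412, 418 and 366 CPM. Every JMO library was well below every K1030R library in all 3, with log2 differences of -1.01 ± 0.04 (SE), -1.08 ± 0.04 and -0.98 ± 0.06. *Fdps* (-0.84 ± 0.04), *Dhcr7* of the last step (-0.89 ± 0.06) and *Sqle*, which makes the first oxygenated sterol precursor (-0.78 ± 0.04), followed. The sterol letters were in 1 of 19 promoters of the list, that of *Hmgcs1* printed above.

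Of 22 fatty acid and lipid synthesis genes tested, 6 were called lower (27.3%, against 0.851% of all) and none higher (median -0.45). *Fasn* (ENSMUSG00000025153, chr11:120805846-120824547), fatty acid synthase, was at 1047, 1095 and 1078 CPM in K1030R and 635, 636 and 592 CPM in JMO, and *Scd2* (ENSMUSG00000025203, chr19:44293674-44306864), a desaturase, at 3733, 3833 and 3873 CPM and 2157, 2182 and 1974 CPM. The differences of -0.79 ± 0.04 (SE) and -0.86 ± 0.03 were many times their errors. *Elovl6*, an elongase (-0.99 ± 0.06), *Acsl3*, an acyl-CoA synthetase (-0.88 ± 0.04), and *Lpin1*, a phosphatidate phosphatase (-0.88 ± 0.04), were also lower. Of 19 tested genes of the brown adipocyte lineage, 1 was called higher and 1 lower (5.26% each, against 2.79% and 0.851% of all genes tested). *Fabp4*, a fatty acid carrier, was higher, at 0.770, 1.81 and 1.5 CPM and 4.76, 4.13 and 4.36 CPM. *Car3*, carbonic anhydrase 3, was lower, at 1.48, 1.61 and 1.24 CPM and 0.122, 0.306 and 0.347 CPM.

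Of 23 genes of the ATF4 response and serine synthesis, 5 were called lower (21.7%, against 0.851% of all genes tested) and none higher (median -0.37). They were *Trib3*, *Chac1*, a glutathione-degrading enzyme (-1.32 ± 0.10), *Atf4* itself (-0.80 ± 0.05), *Atf5* (-0.82 ± 0.06) and *Aldh1l2*, a mitochondrial folate enzyme (-0.77 ± 0.03). *Atf4* (ENSMUSG00000042406, chr15:80255184-80257541), the factor whose translation rises in amino acid shortage, was at 243, 231 and 234 CPM in K1030R and 141, 136 and 128 CPM in JMO. Groups did not overlap. None of 21 ER chaperone genes was called, with *Hsp90b1* at -0.06 ± 0.03 and *Calr* at -0.15 ± 0.03. Of 31 antioxidant genes only *Sod3*, extracellular superoxide dismutase, was called, higher in JMO (3.23%, near the 2.79% of all genes tested). It was at 17.9, 17.3 and 18.1 CPM and 64.1, 68.1 and 67.4 CPM (1.90 ± 0.06).

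Insulin and IGF pathway genes had 3 calls higher and 3 lower of 36 (8.33% each, against 2.79% and 0.851% of all genes tested), with a median of 0.01. Higher in JMO were *Enpp1*, an ectoenzyme that can inhibit the insulin receptor (0.81 ± 0.06), *Igfbp7* (1.12 ± 0.05) and *Igf2*, at 0, 0.201 and 0 CPM in K1030R and 1.18, 0.663 and 0.743 CPM in JMO. Lower were *Igf1* (-1.10 ± 0.10), *Igfbp4* (-1.21 ± 0.15) and *Grb10*, an adaptor that binds the active receptor and restrains it (-0.78 ± 0.03), which was at 258, 264 and 249.5 CPM and 152, 147 and 149.6 CPM. *Grb10* and *Igf2* are imprinted, as is *Peg10* (-0.80 ± 0.04), and these were the 3 calls among 11 imprinted genes tested (9.09% higher and 18.2% lower). The fitted value of *Igf2* rose from 3.51 to 7.16 without K1030R 2, the only K1030R library with counts.

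Of 24 receptor tyrosine kinases, only *Flt1*, a VEGF receptor, was called, higher in JMO (0.87 ± 0.09), which is 4.17% against 2.79% of all genes tested. That call was lost without JMO 1 or K1030R 3, with no filter and in DESeq2 and limma. *Egfr* lay at 69.6, 70.1 and 67.7 CPM and 43.2, 43.8 and 45.1 CPM (-0.65 ± 0.04, adjusted p = 7.52e-15 with no minimum fold) and did not pass the test against the minimum fold, nor did *Ddr2*, a collagen receptor (-0.34 ± 0.03), or the caveolae gene *Cav1* (-0.58 ± 0.03). Among 36 TGF-beta and BMP genes, 3 were called higher (8.33%, against 2.79% of all genes tested) and none lower, among them *Grem1*, a secreted BMP antagonist (0.84 ± 0.04), and *Inhbb*, an activin subunit (1.02 ± 0.11). *Grem1* was at 279, 281 and 273 CPM in K1030R and 517, 504 and 471 CPM in JMO, without overlap. Of 35 WNT and Hedgehog genes, *Sfrp1*, a secreted WNT inhibitor (2.91 ± 0.33), and *Rspo3*, a WNT enhancer (0.87 ± 0.05), were called higher (5.71%). None of 14 Notch genes or 18 Eph and ephrin genes was called, although 1 Notch gene was without K1030R 3.

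Of 30 p53 targets, *Pmaip1*, the pro-apoptotic NOXA (1.89 ± 0.14), and *Trp53inp1*, at 48.5, 55.1 and 48.5 CPM in K1030R and 103, 106 and 103 CPM in JMO (1.04 ± 0.05), were called higher (6.67%, against 2.79% of all genes tested). *Cdkn1a*, the CDK inhibitor p21, was at 42.1, 49.1 and 43.5 CPM and 69.9, 76 and 73.4 CPM, without overlap (0.70 ± 0.05, adjusted p = 3.81e-13 with no minimum fold), but did not pass the test against the minimum fold, which it passed without JMO 1 or K1030R 2, where 4 targets were called. In the insulin dishes 7 targets were called higher, where 3.04% of all genes tested were. Among 37 apoptosis regulators, *Casp4*, a caspase activated by bacterial lipid, was at 4.2, 4.48 and 4.55 CPM and 21.6, 19.7 and 23.2 CPM (2.28 ± 0.10), and *Tnfsf10* or TRAIL (1.63 ± 0.33) and *Mlkl*, the effector of necroptosis (1.02 ± 0.15), were called higher besides *Pmaip1* (10.8%, against 2.79%). The calls of *Tnfsf10* and *Mlkl* were lost in DESeq2, in limma and without K1030R 1 or K1030R 3, that of *Tnfsf10* also without JMO 2 and that of *Mlkl* without JMO 1. No S phase gene of 32, mitosis gene of 32 or cyclin and inhibitor gene of 17 was called, although with no minimum fold 19 mitosis genes were lower and 1 higher (median -0.16), against 18% and 17.4% of all genes tested. *Mki67* was at 599, 557 and 581 CPM and 501, 479 and 481 CPM, a difference of -0.25 ± 0.04.

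Of 31 immediate early genes, which cells switch on within minutes of a stimulus, 3 were called higher in unstimulated JMO cells (9.68%, against 2.79% of all genes tested) and none lower (median 0.42). With no minimum fold 18 were higher and 4 lower, against 17.4% and 18% of all genes tested. *Fos* was at 1.95, 2.62 and 1.97 CPM in K1030R and 5.81, 4.74 and 5.05 CPM in JMO (1.26 ± 0.16), and *Egr3* (0.88 ± 0.09) and *Ier3* (0.79 ± 0.07) were also called. *Egr1* was at 68.2, 69 and 66.5 CPM and 108, 105 and 115 CPM (0.69 ± 0.07), and *Jun* differed by 0.49 ± 0.07, neither being called. The count of higher calls in the list was 0 in limma and 1 in DESeq2 and without K1030R 3, and 1 member was called lower without JMO 2. In the insulin dishes 10 members were called higher and 1 lower (median 0.59), where 3.04% and 0.857% of all genes tested were called.

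None of 26 glycolysis genes, 40 respiratory chain genes or 50 ribosomal protein genes was called, with medians of -0.04, -0.06 and -0.12. With no minimum fold 24 of the ribosomal protein genes were lower and none higher, against 18% and 17.4% of all genes tested. *Gapdh* differed by -0.22 ± 0.04, *Pkm* by -0.15 ± 0.04, *Pfkl* by 0.35 ± 0.05 and *Rplp0* by -0.01 ± 0.04. *Fth1*, the ferritin heavy chain, was called higher, at 1045, 1067 and 1043 CPM in K1030R and 1812, 1861 and 1862 CPM in JMO (0.81 ± 0.03). None of 28 HOX genes and none of 5 X-inactivation and Y chromosome genes was called, with *Hoxc6* at 0.02 ± 0.04 and *Ddx3y* at -0.11 ± 0.05. The preadipocyte surface gene *Thy1* was at 29.7, 28.1 and 28.5 CPM and 27.2, 26.6 and 24.8 CPM and differed by -0.13 ± 0.06 (adjusted p = 0.0872). Over the 20 chromosomes (autosomes and X), median log2 differences lay between -0.06 and 0.07, and the share called higher ranged from 0.825 to 4.19% and lower from 0.13 to 2.03%.

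**Figure D3:**
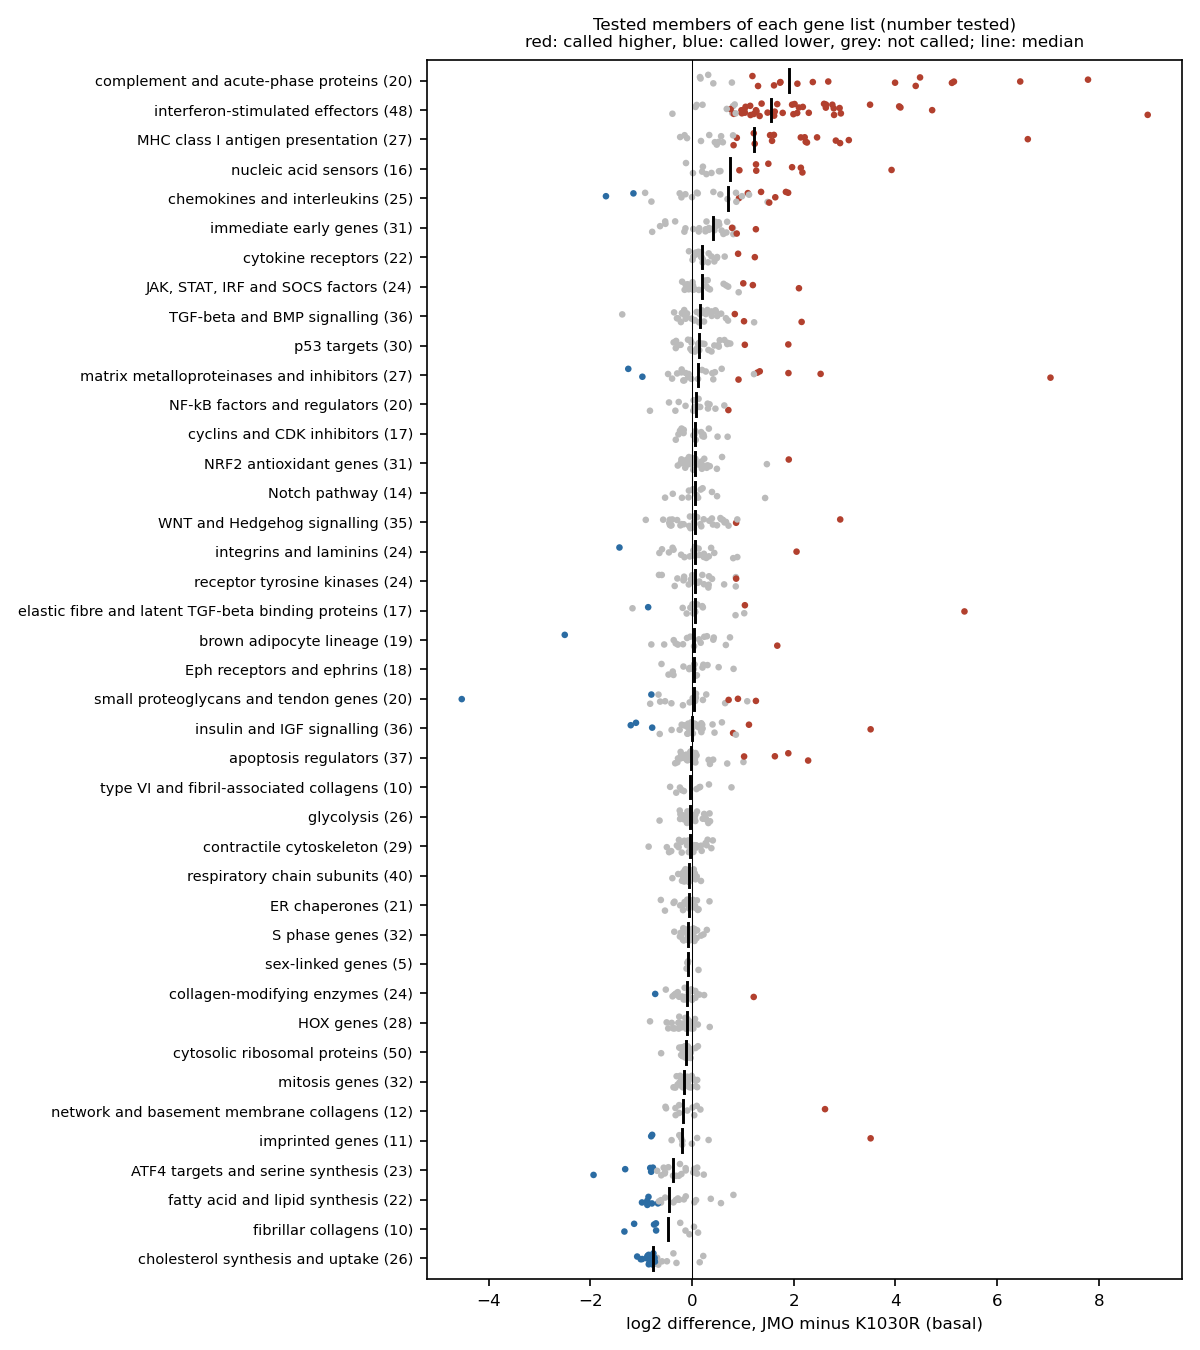
Log2 difference between JMO and K1030R (horizontal) of each tested member of 41 gene lists (rows, number tested in brackets); red and blue points are called higher and lower, grey points not called, black lines the list medians. Complement, interferon and MHC class I lists have medians above 1, cholesterol genes have the lowest at -0.77, and ribosomal, respiratory chain and cell cycle lists gather near 0.

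Both lines were made from DKO cells, and the DKO libraries give them a common reference. The titles do not say whether these dishes held the parental cells or the cells given empty vector that the methods also list. Both contrasts with DKO use its 3 libraries, so they are set side by side, as log2 differences with SE, and not counted. *H2-K1* differed from DKO by 0.30 ± 0.05 in JMO and -2.78 ± 0.06 in K1030R, *Ifit1* by 0.03 ± 0.16 and -1.94 ± 0.17, *Stat2* by -0.34 ± 0.11 and -1.35 ± 0.11, and *Il6* by -0.30 ± 0.22 and -2.15 ± 0.28. For these genes K1030R was further from DKO than JMO was. *Oas2* differed from DKO by -0.58 ± 0.18 in JMO and -4.68 ± 0.25 in K1030R. *C3* (0.64 ± 0.10 in JMO, -4.47 ± 0.13 in K1030R), *Lcn2* (1.26 ± 0.04, -3.89 ± 0.07) and *Ltbp2* (1.27 ± 0.05, -4.09 ± 0.09) had DKO between both lines. The same holds for *Hmgcs1* (-0.29 ± 0.04, 0.72 ± 0.04), *Col3a1* (-0.59 ± 0.04, 0.55 ± 0.04) and *Adcyap1r1* (-1.30 ± 0.15, 1.29 ± 0.12) with the order turned round. *Trib3* was 0.31 ± 0.11 and 2.25 ± 0.09 above DKO. *Fmod* (1.94 ± 0.12, 0.69 ± 0.14) and *Cdkn1a* (0.81 ± 0.05, 0.11 ± 0.06) were further from DKO in JMO than in K1030R. For *Trp53inp1* (0.58 ± 0.05, -0.46 ± 0.06) DKO lay between both lines. *Thy1* (1.99 ± 0.07, 2.12 ± 0.07) and *Fbn2* (2.91 ± 0.15, 3.77 ± 0.14) were above DKO in both.

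The lines with kinase-competent receptors added a further reference. *H2-K1* was at 37 ± 2.76 CPM in IR cells, 25.8 ± 3.44 CPM in ∆CT cells, which lack only the C-terminal tail, and 199 ± 9.18 CPM in DKO cells (SD, n = 3 each). *C3* was at 18.7 ± 2.64 CPM, 21.1 ± 4.78 CPM and 519 ± 24.2 CPM. For both genes IR and ∆CT were near K1030R and far below JMO. *Oas2* was at 36.4 ± 1.39 CPM in IR, 11.3 ± 6.68 CPM in ∆CT and 246 ± 33.8 CPM in DKO, so that the IR line lay between K1030R and JMO. *Trib3* was at 37 ± 3.72 CPM, 31.3 ± 3.46 CPM and 7.23 ± 0.186 CPM, and *Col3a1* at 2883 ± 71.4 CPM, 1970.3 ± 121 CPM and 1083 ± 45.8 CPM, with IR above K1030R for *Col3a1*. *Adcyap1r1* departed from that grouping, with IR at 17.8 ± 1.45 CPM, near JMO, and ∆CT at 55.9 ± 11.2 CPM, nearer K1030R.

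**Figure D4:**
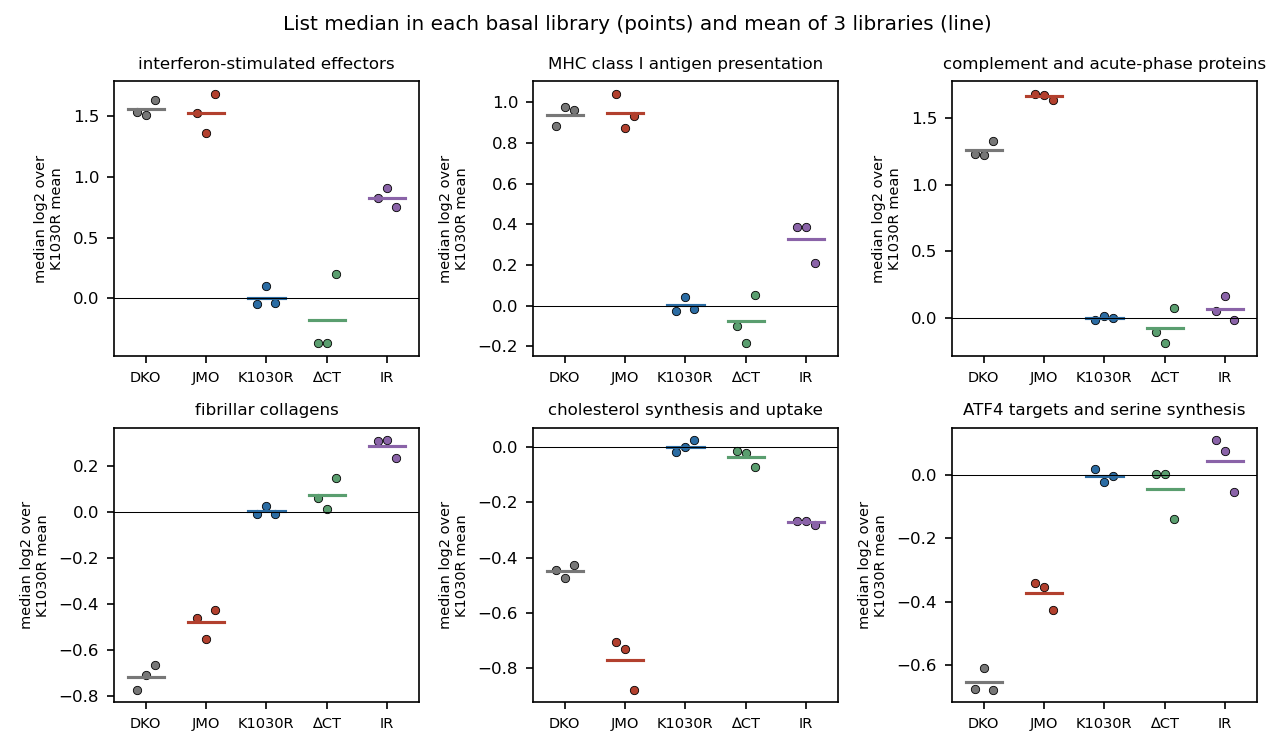
Median over each list of log2(CPM + 0.5) relative to the K1030R mean (vertical) in each basal library of the 5 lines (points), with the mean of 3 libraries (lines). JMO and DKO lie apart from K1030R and ∆CT in all 6 lists, and IR is between them for interferon effectors, MHC class I and cholesterol genes.

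The same contrast in separate dishes given insulin called 468 genes higher (3.04%) and 132 lower (0.857%), 600 in all (3.9%). Of the genes called in basal cells, 378 were called higher in both, which is 87.9% of the basal and 80.8% of the insulin list, and 107 lower in both (81.7% and 81.1%). None was called in opposite directions. *Oas2* was at 12.2, 11.2 and 11.2 CPM in K1030R with insulin and 162, 147 and 219 CPM in JMO with insulin, and *C3* at 22.1, 24.6 and 25.8 CPM and 728, 748 and 819.9 CPM. The groups stayed apart, by 3.93 ± 0.24 and 4.98 ± 0.13 on the log2 scale. *Hmgcs1* differed by -1.03 ± 0.04, *Col3a1* by -1.12 ± 0.04 and *Trib3* by -1.77 ± 0.09 with insulin. The calls of *Matn3* (-1.13 ± 0.32), *Thbs2* (0.65 ± 0.04) and *Flt1* (0.73 ± 0.09) were not made with insulin. The test of the difference between the insulin and the basal contrast called 4 genes (0.026%), *Dnm3os*, *Egr1*, *Gm20045* and *Btg2*, with 571 at an unadjusted p under 0.05. *Egr1* went to 100.0, 90.9 and 88.8 CPM in K1030R and 254, 234 and 243 CPM in JMO with insulin, so that its difference between lines grew from 0.69 ± 0.07 to 1.39 ± 0.06.

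**Figure D5:**
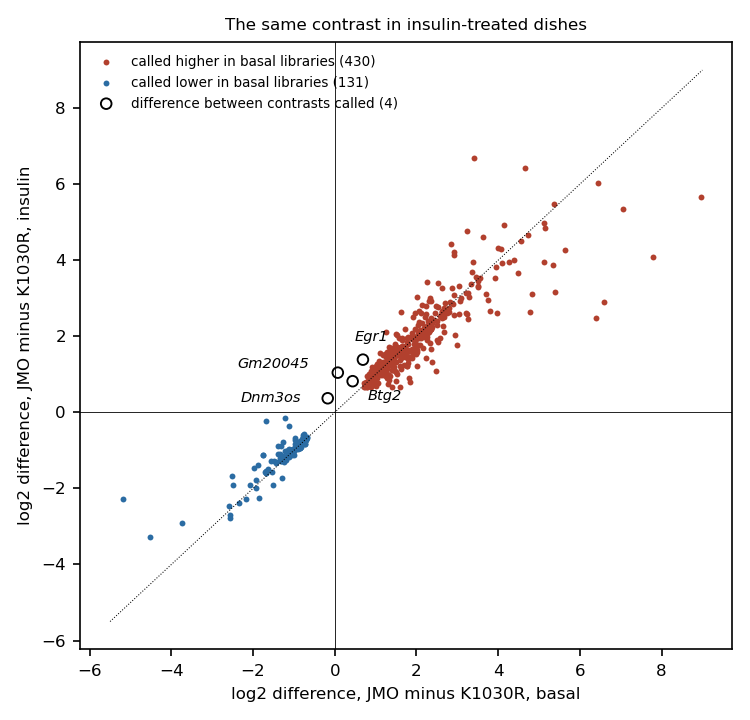
Log2 difference between JMO and K1030R in insulin-treated dishes (vertical) against that in basal dishes (horizontal) for the 561 genes called in basal cells, with the line of equal values. All 561 have the same sign in both. Open circles add the 4 genes whose difference changed between the contrasts, none of them called in basal cells, which lie above the line, *Dnm3os* with opposite signs.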

How the data were processed

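Poly(A) mRNA was sequenced from mouse brown preadipocyte lines, and the authors trimmed reads with fastp, estimated transcript abundance with kallisto on the Ensembl mouse transcripts (GRCm38) and summed it per gene, which gave the deposited expected counts of 26 libraries (17228982 to 24694828 per library). Groups came from the sample titles, and every column of the table belonged to a sample. Expected counts were rounded, genes with more than 0.5 CPM in at least 4 libraries were kept (15402), and edgeR 4.0.16 (TMM, robust quasi-likelihood fit, R 4.3.3) was fitted to all 26 libraries with 1 mean per group. Differences are JMO minus K1030R on the log2 scale with their SE, taken as the absolute difference divided by the square root of the quasi-likelihood F statistic. Calls used glmTreat with a minimum fold of 1.5, and adjusted p-values of single genes used no minimum fold, both Benjamini-Hochberg adjusted over all genes tested. CPM used TMM-scaled totals. Alternatives were RLE scaling, no filter, a filter on 10 counts, unrounded values, DESeq2 1.42.0, limma 3.58.1 TREAT, the 6 libraries alone, a replicate block, each library left out, and other thresholds. The fit was tested on simulated data. Members of a list were described by counts and medians, with no set test. The genes named were the 10 largest called in each direction, up to 3 with few counts, the 5 called with the highest CPM, up to 4 called from each list (2 by level where none was called), genes fixed from the study and earlier results, and those called in the contrast of contrasts. Genes and lists were chosen with earlier results of these data known. Symbols and coordinates are from GENCODE on GRCm38 and promoters from RefSeq. The counts of 6 called identifiers, and of 331 tested ones, were identical to those of another tested identifier. Kallisto divides reads among near-identical genes by estimate. Replicate libraries differed by more than counting noise, so none was merged. Some genes that the rule names are not reported here.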

Additional observations from a re-analysis of the deposited data

Results flagged for a closer look

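The difference between JMO and K1030R changed with insulin for 4 genes in the test of the contrast of contrasts (edgeR, Benjamini-Hochberg). *Dnm3os*, a long noncoding host transcript of microRNAs, was at 49.1, 44.6 and 48.3 CPM in K1030R and 42.5, 41.1 and 42.2 CPM in JMO without insulin, and at 70.1, 70.2 and 76.5 CPM and 94.3, 90.4 and 95.7 CPM with it, a change of 0.54 ± 0.08 (SE, adjusted p = 6.24e-04) in the log2 difference. JMO was the lower line without insulin and the higher one with it, in all 3 libraries of each. *Egr1*, an immediate early transcription factor, changed by 0.70 ± 0.09 (adjusted p = 0.00128) and was, in both lines, higher in every library with insulin than in every library without. *Gm20045*, a predicted gene, changed by 0.97 ± 0.17 (adjusted p = 0.016), from 8.17, 7.05 and 7.87 CPM and 7.68, 6.99 and 9.61 CPM to 4.06, 3.55 and 4.15 CPM and 8.48, 8.17 and 7.54 CPM. *Btg2*, a regulator of mRNA decay, changed by 0.38 ± 0.07 (adjusted p = 0.0262), from 23, 24.5 and 21.4 CPM and 31.1, 32.1 and 30.3 CPM to 24.5, 24.9 and 25.5 CPM and 44.5, 43.4 and 44.2 CPM. The *Gm42418* share of counts was 4.47 to 4.87% without insulin and 1.46 to 3.05% with it in JMO, and 2.82 to 3.64% and 2.74 to 3.91% in K1030R. Its part in these 4 results was not tested.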

How the results depend on the processing

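The counts of 430 higher and 131 lower genes moved beyond 1.5 times with no minimum fold (2676 and 2775), a minimum fold of 2 (213 and 24), a threshold of 0.001 (269 and 73), and in DESeq2 for the lower genes (83, with 299 higher). They stayed within 1.5 times under the remaining alternatives, limma TREAT giving 344 and 91 and the insulin dishes 468 and 132. Leaving out a library gave 365 to 404 higher and 115 to 125 lower. Replicate numbers did not pair the lines (correlation of residuals between JMO and K1030R of the same number -0.021, -0.075 and -0.041), and a replicate block gave 431 and 134 genes, of which 422 and 131 were shared. *Dnm3os* reversed with insulin (0.37). *Gm20045* ranged from -0.0594 to 0.165, *Rplp0* from -0.0292 to 0.00822 and *Insr*, at a difference of 0.00, from -0.044 to 0.0606 when a library was left out. *Insr* also turned to -0.0152 with no filter, -0.00287 with the count filter, -0.00147 in the 6 libraries alone, -0.000538 under the block and -0.0097 without *Gm42418*. The cause was not tested. Of the values of named genes under the alternatives, 2430 stayed on their side of the threshold, 65 lost it and 6 gained it. Of the list counts 44 moved and 1268 did not, of the list medians 40 and 616, and of the values per chromosome 16 and 94. The share of calls that were higher was 76.6%, 71.1 to 79.1% in the alternatives that kept a minimum fold of 1.5, 49.1% with no minimum fold and 89.9% with one of 2. With 1 line per receptor and dishes as replicates, no setting separates receptor from line.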
